A study of Mus musculus with 4 samples.

Results

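The 5 genes described here encode alpha-arrestins: Txnip, Arrdc3, Arrdc4, Arrdc2 and Arrdc1. They are 5 of the 31253 genes in the feature table, and each was found by its exact symbol in all 4 libraries. They were chosen by measured values, since Arrdc3 was already known to be higher in the KO library than in WT, so the KO and WT levels of Arrdc3 are given as a description. The KO library held tumour CD8+ T cells of mice labelled BFAR-CD8-KO, for deletion of Bfar, and the WT library held those of wild-type mice. Both came from subcutaneous tumours of the mouse bladder carcinoma line MB49 in C57BL/6Slac mice aged 10 to 12 weeks. The Aged library held CD8+ T cells of donors aged 18 months and the Young library those of donors aged 8 weeks. Both kinds of donor cell were given by vein to Rag1-/- hosts aged 8 to 10 weeks on the day of MB49 inoculation. The host strain is labelled B6.129S7-Rag1tm1Mom/J for Aged and B6.129S7-Rag1tm0Mom/J for Young. Hosts without Rag1 lack lymphocytes of the T and B lineages but keep NK and myeloid cells. Each library pooled CD45+ CD8+ cells of 3 mice, and the labels do not name the promoter that drives the deletion.

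Alpha-arrestins are adaptors that bring ubiquitin ligases of the Nedd4 family to proteins of the cell surface, which are then taken into the cell. Txnip, thioredoxin-interacting protein, binds and inhibits thioredoxin and also promotes internalisation of the glucose transporter GLUT1, encoded by Slc2a1. Transcription of Txnip and of Arrdc4, a close relative that also lowers glucose uptake, is switched on by the sugar-sensing pair of MondoA (gene Mlxip) and Mlx. Txnip is also known as a target of Foxo factors, and its transcript falls when T cells are activated. Arrdc3 acts on the trafficking of cell surface receptors and of an integrin subunit, and Arrdc1 takes part in budding of vesicles from the plasma membrane.

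The 250 bases before the RefSeq start sites of Txnip, Arrdc4 and Arrdc3 (build GRCm38.p6) are shown because Txnip and Arrdc4 share an upstream sugar-sensing factor and because Arrdc3 differed most between KO and WT. The capitals mark matches, on either strand, to CACGNG (the E-box-like part of the element that MondoA and Mlx bind), GTAAACA (a forkhead motif) and CCAAT (the CCAAT box).
Txnip, chr3:96557707-96557956, plus strand: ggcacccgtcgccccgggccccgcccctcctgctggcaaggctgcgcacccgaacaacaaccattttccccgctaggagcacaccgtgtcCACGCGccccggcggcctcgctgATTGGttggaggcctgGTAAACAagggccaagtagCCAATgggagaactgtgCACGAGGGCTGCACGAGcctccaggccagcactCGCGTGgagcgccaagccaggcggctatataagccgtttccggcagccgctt
Arrdc4, chr7:68749239-68749488, minus strand: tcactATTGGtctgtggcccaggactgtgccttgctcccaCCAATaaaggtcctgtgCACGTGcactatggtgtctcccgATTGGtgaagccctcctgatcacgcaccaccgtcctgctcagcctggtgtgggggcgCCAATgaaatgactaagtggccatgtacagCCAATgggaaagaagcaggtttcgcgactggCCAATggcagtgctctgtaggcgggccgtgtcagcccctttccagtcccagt
Arrdc3, chr13:80883134-80883383, plus strand: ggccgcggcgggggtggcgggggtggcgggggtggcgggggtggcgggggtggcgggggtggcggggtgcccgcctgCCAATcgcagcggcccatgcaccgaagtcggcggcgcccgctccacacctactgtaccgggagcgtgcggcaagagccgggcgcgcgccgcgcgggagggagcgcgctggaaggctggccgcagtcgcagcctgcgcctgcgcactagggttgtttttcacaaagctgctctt
In the Txnip window, 2 copies of CACGNG lay 5 bases apart, starting 85 bases before the start site. A pair so spaced was found in 15 of 32851 windows of the same length, or 0.0457%. A single CACGNG was found in 23.5% of windows. The Arrdc4 window held 1 such match, and none was found in the windows of the 3 Arrdc3 start sites. The Txnip window also held 1 forkhead motif, which 3.17% of windows had. CCAAT, found in 33.8% of windows, occurred 6 times before Arrdc4, 2 times before Txnip and 1 time before Arrdc3. These are matches of letters only.

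In GENCODE annotation on the same build, all 5 genes are protein coding with 8 exons in the main transcript. Txnip (ENSMUSG00000038393) lies at chr3:96557957-96561883 on the plus strand, Arrdc3 (ENSMUSG00000074794) at chr13:80883384-80896042 on the plus strand, and Arrdc4 (ENSMUSG00000042659) at chr7:68736995-68749241 on the minus strand. Arrdc2 (ENSMUSG00000002910) lies at chr8:70835129-70839720 and Arrdc1 (ENSMUSG00000026972) at chr2:24925352-24935252, both on the minus strand.

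Levels were read in barcodes that passed the filters (1000 or more unique molecular identifiers, UMIs, 500 or more genes, and no more than 10% of UMIs from mitochondrial genes) and held at least 1 UMI of a CD3 gene and 1 of a CD8 gene. These were 8153 of 8410 barcodes that passed for KO, 8966 of 9405 for WT, 8252 of 8798 for Aged and 9803 of 10538 for Young. Their median depth was 6870 UMIs for KO, 6341 for WT, 5768 for Aged and 4510 for Young. Bfar itself was at 22.4 CPM (counts per 1000000 UMIs) in KO, against 32.1 CPM in WT, a ratio of 0.697, and the files do not show from which part of the gene those reads came. KO and WT shared 20 barcode sequences and Aged and Young shared 145. Markers of other cells were present among the CD3 and CD8 positive barcodes. The 8 mast cell or basophil markers summed to 513.5 CPM in KO, against 1310 CPM in WT, with none at 0, and the 6 fibroblast markers to 34.0 CPM in KO, against 226.4 CPM in WT. The 7 tumour or epithelial markers summed to 120.1 CPM in KO, against 349.1 CPM in WT, and to 48.8 CPM in Aged, where Cldn4 and Krt5 were at 0, and 194.0 CPM in Young. Without barcodes with 3 or more UMIs of such markers, the KO over WT ratio of Txnip level was 0.745 and that of Arrdc3 2.07, and the Aged over Young ratio of Txnip was 1.46. Each group was 1 library, so no spread between replicates exists and no test was made. Intervals are exact 95% intervals that cover counting error only.

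Txnip was lower in KO than in WT and higher in Aged than in Young. It stood at 171.6 CPM in KO (11953 UMIs), against 209.7 CPM in WT (15979 UMIs), a KO over WT ratio of 0.819 (0.799 to 0.838). In the transfer pair it stood at 214.1 CPM in Aged (13945 UMIs), against 139.6 CPM in Young (8490 UMIs), an Aged over Young ratio of 1.53 (1.49 to 1.58). When every barcode was reduced to 2000 UMIs, 25.4% of KO barcodes and 33.1% of WT barcodes held a Txnip UMI, and 35.8% of Aged barcodes and 26.4% of Young barcodes did. Without that step the shares were 55.2% in KO and 63.0% in WT, and 66.5% in Aged and 47.5% in Young. In tumour or epithelial cell-like barcodes of WT, which had no CD3 UMI and a median of 34516 UMIs, 3 of 82 (3.66%) held a Txnip UMI at 2000 UMIs. Fewer cells with the transcript and less transcript per cell cannot be fully told apart at this depth. Against all genes measured in a pair (at least 20 UMIs over both libraries and 10 CPM in 1 of them), 8.35% had a lower KO over WT ratio than Txnip, and 97.7% had a lower Aged over Young ratio.

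**Figure D1:**
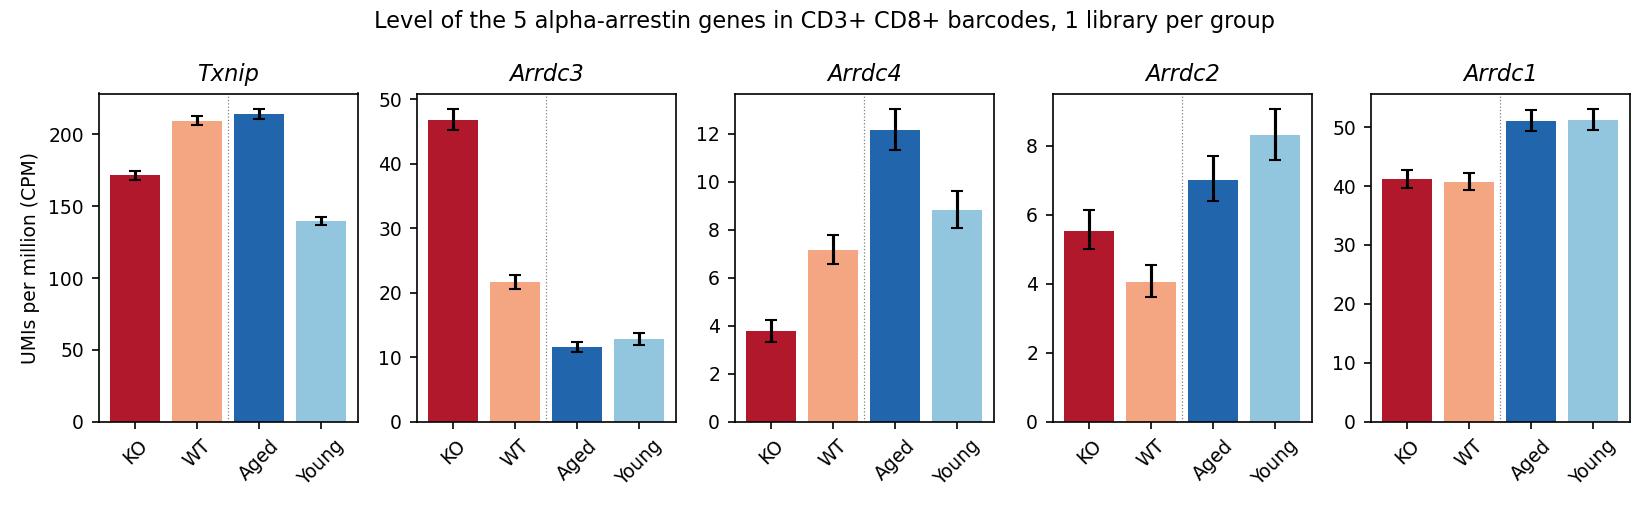
Level of each alpha-arrestin gene (CPM, vertical axis from 0) in CD3 and CD8 positive barcodes of KO, WT, Aged and Young. Bars are 1 library each, error bars are exact 95% counting intervals, and the dotted line separates the pairs, which were made with different kits. Arrdc3 stands at 46.8 CPM in KO, against 21.6 CPM in WT, while Arrdc1 is at 41.1 CPM in KO, against 40.8 CPM in WT.

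Arrdc3 stood at 46.8 CPM in KO (3259 UMIs), against 21.6 CPM in WT (1649 UMIs), a ratio of 2.16 (2.04 to 2.30), the 5th highest of 7415 measured genes. At 2000 UMIs per barcode, 8.95% of KO barcodes and 4.34% of WT barcodes held an Arrdc3 UMI. In the transfer pair Arrdc3 was at 11.54 CPM in Aged, against 12.81 CPM in Young, a ratio of 0.901 (0.814 to 0.997). That interval ends just below 1. In these libraries the KO and WT values of Txnip and Arrdc3 lay in opposite directions.

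Arrdc4 lay on the same side as Txnip in both pairs, at few counts. It stood at 3.76 CPM in KO (262 UMIs), against 7.15 CPM in WT (545 UMIs), a ratio of 0.526 (0.452 to 0.611), which is under the 10 CPM needed to count as measured. It stood at 12.1 CPM in Aged (791 UMIs), against 8.82 CPM in Young (536 UMIs), a ratio of 1.38 (1.23 to 1.54). Arrdc2 was at 5.54 CPM in KO, against 4.05 CPM in WT, a ratio of 1.37 (1.17 to 1.59), but of 1.03 when each barcode was reduced to 2000 UMIs. It was at 7.02 CPM in Aged, against 8.31 CPM in Young, a ratio of 0.845 (0.743 to 0.961), and of 0.624 at 2000 UMIs per barcode. Arrdc1 hardly differed within either pair. It was at 41.1 CPM in KO, against 40.8 CPM in WT, a ratio of 1.01 (0.958 to 1.06), and at 51.1 CPM in Aged, against 51.2 CPM in Young, a ratio of 0.998 (0.950 to 1.05). Arrdc5, the remaining alpha-arrestin gene of the family, had 0 UMIs in each of the 4 libraries, for which a limit of 3 counts is 0.0431 CPM for KO, 0.0394 CPM for WT, 0.0461 CPM for Aged and 0.0493 CPM for Young.

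Of the 5 members, 3 were measured in KO and WT, and 1 of them, Arrdc3, was at least 1.5 times higher in KO, against 0.607% of all measured genes, a count the choice of Arrdc3 fixed. None of the 3 was at least 1.5 times lower in KO, against 3.09% of measured genes. In Aged and Young 4 members were measured, and 1 of them, Txnip, was at least 1.5 times higher in Aged, against 2.62% of measured genes. None of the 4 was at least 1.5 times lower in Aged, against 3.83%. The median log2 ratio of all measured genes was -0.05 for KO over WT and 0.08 for Aged over Young.

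The level of Txnip was lower in the barcodes with the most UMIs than in the shallowest, in each of the 4 libraries. In barcodes of 2000 to 4000 UMIs it stood at 203.5 CPM in KO, 298.6 CPM in WT, 393.1 CPM in Aged and 220.3 CPM in Young. In barcodes of 12000 UMIs and more it stood at 138.1 CPM in KO, 138.0 CPM in WT, 129.4 CPM in Aged and 68.4 CPM in Young. Between these ends the level fell from bin to bin in WT, Aged and Young, while in KO it was 182.9, 188.6 and 191.8 CPM in the 3 middle bins, so that only the deepest KO bin stood clearly lower. The ratio of the shallow to the deep barcodes was 1.47 (1.32 to 1.64) for KO, 2.16 (2.02 to 2.32) for WT, 3.04 (2.87 to 3.21) for Aged and 3.22 (3.00 to 3.45) for Young. The median ratio over all measured genes in the same contrast lay between 0.993 and 1.05, and Txnip exceeded 81.8% of them for KO, 96.2% for WT, 98.6% for Aged and 99.2% for Young.

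This gradient was also present among barcodes negative for Mki67, a proliferation marker, where the ratio of shallow to deep was 1.39 for KO, 2.14 for WT, 2.94 for Aged and 3.17 for Young. In barcodes with fewer than 3 UMIs of markers of other cell types it was 1.35 for KO, 1.61 for WT, 2.80 for Aged and 2.82 for Young. Arrdc3 had a gradient of the same sign, 1.40 (1.13 to 1.73) for KO, 2.06 (1.65 to 2.54) for WT, 1.69 (1.27 to 2.21) for Aged and 1.61 (1.31 to 1.99) for Young. So did Arrdc2, at few counts: 2.28 for KO, 3.05 for WT, 1.40 (0.982 to 1.96) for Aged and 2.20 for Young. Arrdc4 was at 0.657 (0.208 to 1.59) for KO, 0.512 for WT, 1.40 for Aged and 0.432 for Young. Without barcodes with markers of other cell types, the Arrdc4 ratio was 0.798 for WT and 3.43 for Young. Arrdc1 had a ratio of 1.14 for KO, 1.01 for WT, 0.932 for Aged and 0.886 for Young, and only the Young interval left out 1.

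**Figure D2:**
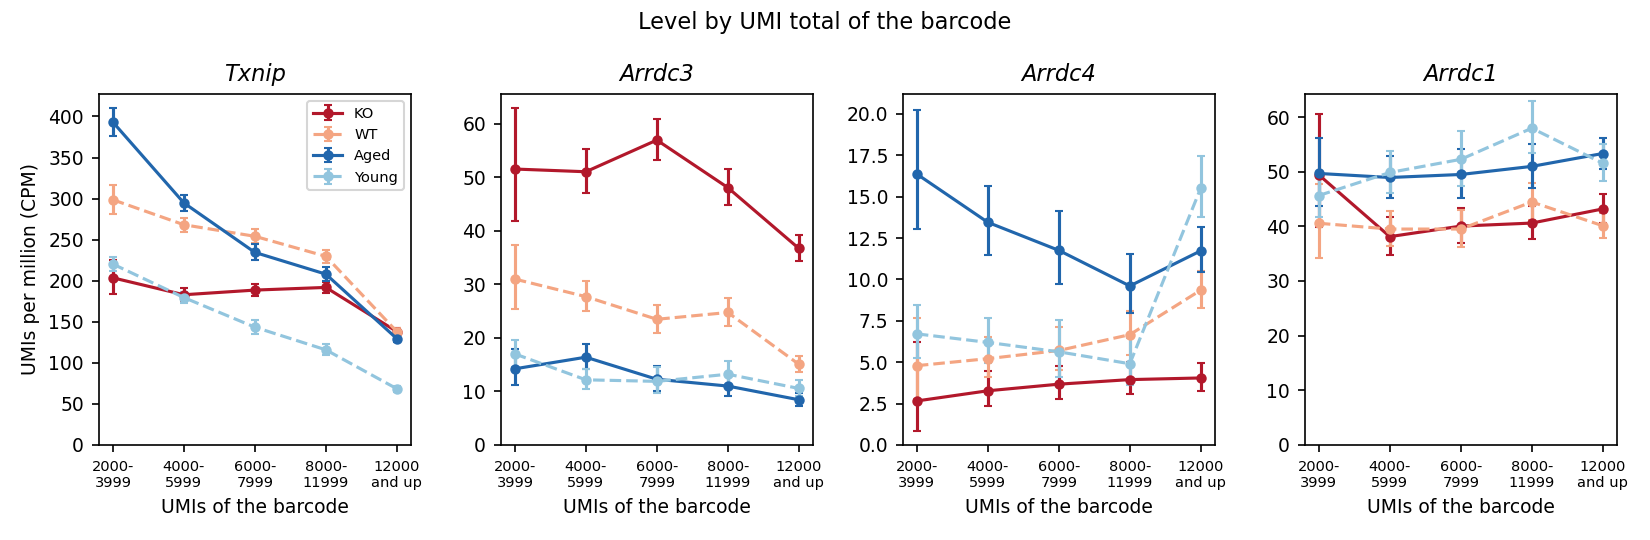
Level of Txnip, Arrdc3, Arrdc4 and Arrdc1 (CPM, vertical axes from 0) in 5 bins of barcodes by UMI total (horizontal axis), for KO, WT, Aged and Young. Points are 1 library each with exact 95% counting intervals. Txnip falls in Aged from 393.1 CPM in the shallowest bin to 129.4 CPM in the deepest, and KO and WT meet in the deepest bin at 138.1 and 138.0 CPM, where they differ (151.1 CPM in KO, against 186.7 CPM in WT, not drawn) once barcodes with markers of other cell types are left out.

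The pair ratios were also read within bins of depth. The KO over WT ratio of Txnip was 0.682 (0.605 to 0.767) at 2000 to 4000 UMIs, 0.682 at 4000 to 6000, 0.742 at 6000 to 8000, 0.835 at 8000 to 12000 and 1.00 (0.955 to 1.05) from 12000 UMIs up. In the deepest barcodes the 2 libraries did not differ beyond counting error, and in every shallower bin KO was lower. That equality was no longer present once barcodes with markers of other cell types were left out. This left 913 of 1221 barcodes of the deepest bin in KO and 933 of 1391 in WT, and depth within that bin was not matched. Without barcodes with 3 or more UMIs of such markers, the deepest bin stood at 151.1 CPM in KO, against 186.7 CPM in WT, a ratio of 0.810 (0.766 to 0.855), and the other 4 bins at 0.679 to 0.813. With the same weights of the 5 bins in both libraries the ratio was 0.754. In Aged over Young, Txnip was higher in all 5 bins, with ratios from 1.64 to 1.89, and 1.72 with equal bin weights. The KO over WT ratio of Arrdc3 lay between 1.66 and 2.44 in the 5 bins. Its Aged over Young ratio lay on either side of 1, from 0.800 (0.654 to 0.978) in the deepest bin to 1.35 (1.09 to 1.67) at 4000 to 6000 UMIs.

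Arrdc4 in the deepest barcodes moved with markers of other cells. Its Aged over Young ratio was 2.44 (1.76 to 3.39), 2.17, 2.09 and 1.96 in the 4 bins below 12000 UMIs, but 0.755 (0.639 to 0.893) in the deepest, where Aged stood at 11.7 CPM, against 15.5 CPM in Young. Once barcodes with at least 3 UMIs of markers of other cell types were taken out, 153 of 296 Arrdc4 UMIs were left in the deepest Aged barcodes and 15 of 278 in the deepest Young ones. The ratio in that bin was then 4.25 (2.50 to 7.78). Without such barcodes at any depth the Aged over Young ratio of Arrdc4 was 2.12. Among the barcodes with no CD3 UMI, dendritic cell-like ones had Arrdc4 at 69.7 CPM (30 barcodes) in Aged and 40.1 CPM (46 barcodes) in Young, and NK cell-like ones had 50.4 CPM (28 barcodes) in Young. Tumour or epithelial cell-like barcodes had 18.9 CPM in WT, 22.7 CPM in Aged and 23.7 CPM in Young. In the same 3 kinds of barcode Txnip was between 10.1 and 59.97 CPM, below its level in the CD8 positive barcodes of each library. How many deep barcodes hold more than 1 cell was not tested.

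Cycling barcodes were those with a UMI of Mki67, a proliferation marker, among 2000 UMIs drawn at random. Txnip was lower in them in all 4 libraries. It stood at 121.9 CPM in Mki67-positive and 177.0 CPM in Mki67-negative barcodes of KO (444 and 7664 barcodes), a ratio of 0.689 (0.641 to 0.739). In WT it stood at 155.4 CPM in positive and 216.3 CPM in negative barcodes (ratio 0.718), in Aged at 145.0 and 226.5 CPM (0.640), and in Young at 92.2 and 146.4 CPM (0.630). Of the members measured, Txnip and Arrdc4 were at least 1.5 times lower in Mki67-positive barcodes of Aged, and Txnip in those of Young, where 2.85% and 2.36% of measured genes were. No measured member was so in KO and WT, where 3.15% and 4.19% of genes were. Arrdc4 stood at 7.98 CPM in Mki67-positive and 12.9 CPM in Mki67-negative barcodes of Aged (0.621, 0.491 to 0.776), on 87 UMIs in the positive ones. At least 1.5 times higher in Mki67-positive barcodes were 14.2% of measured genes for KO, 17.2% for WT, 9.26% for Aged and 10.9% for Young, and no member was among them. Top2a, a topoisomerase of dividing cells, marked the gate with ratios from 5.34 in Aged to 10.7 in KO.

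Depth moved with this gate. Mki67-positive barcodes had a median of 12633 UMIs, against 6772 in Mki67-negative barcodes of KO, and 12343 against 6229.5 in WT, 11114.5 against 5614 in Aged and 8712 against 4514 in Young. With the same weights of the depth bins on both sides the Txnip ratio was 0.842 for KO, 0.992 for WT, 0.892 for Aged and 0.914 for Young, still below 1 but close to it in WT. Barcodes were also split by UMI total into lowest, middle and highest parts. In the highest part the Txnip ratio was 0.699 (0.645 to 0.756) for KO and 0.824 (0.774 to 0.878) for WT. It was 0.803 (0.755 to 0.854) for Aged and 0.813 (0.747 to 0.884) for Young. Depth was not matched there, with medians of 15891 UMIs in positive and 11237 in negative barcodes of KO, and 14728 and 11185 in WT. The medians were 14085 and 11094 in Aged and 10471 and 8633 in Young. In the middle part, where medians lay closer, the ratio was 0.840 (0.658 to 1.06) for KO and 1.10 (0.921 to 1.30) for WT. It was 0.833 (0.705 to 0.979) for Aged and 0.741 (0.599 to 0.906) for Young. In the lowest part all 4 intervals held 1. Arrdc3 had a ratio of 0.796 (0.698 to 0.905) for KO, 0.865 for WT, 0.838 for Aged and 0.958 for Young, and the interval left out 1 in KO alone. With depth weights Arrdc3 was 1.26 for KO, 1.32 for WT and 1.18 for Aged, on the other side of 1, and 0.920 for Young.

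**Figure D3:**
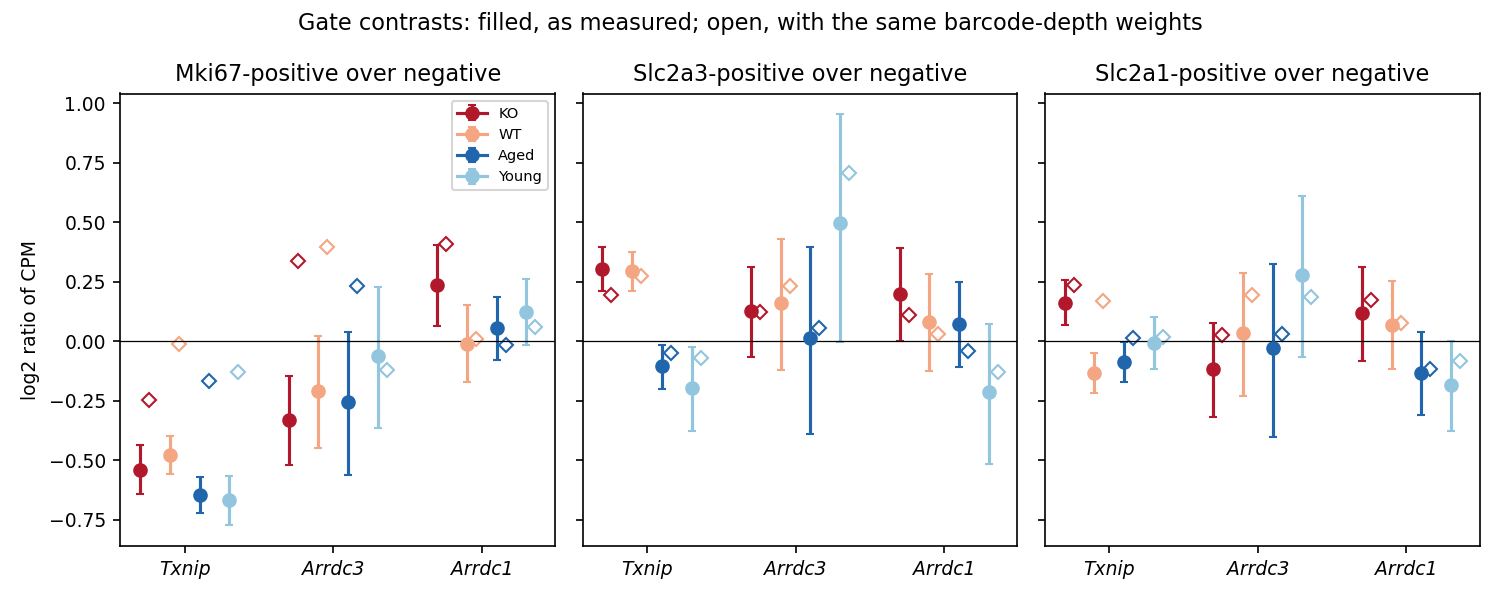
Log2 ratio of CPM between gate-positive and gate-negative barcodes (vertical axis) for Txnip, Arrdc3 and Arrdc1, with Mki67, Slc2a3 and Slc2a1 gates in separate panels and KO, WT, Aged and Young by colour. Filled points are as measured, with exact 95% counting intervals, and open diamonds give both sides the same depth weights. For Mki67 the filled Txnip points are all below 0, and the open ones are nearer to 0 (ratios 0.842 to 0.992).

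The gate on Slc2a3 gave Txnip another direction in the deletion pair than in the transfer pair, and the gate on Slc2a1 did not divide the pairs. Barcodes with a UMI of Slc2a3, which encodes the transporter GLUT3, had more Txnip in the deletion pair: 208.5 CPM in Slc2a3-positive and 168.9 CPM in Slc2a3-negative barcodes of KO, a ratio of 1.23 (1.16 to 1.32). The same ratio was 1.23 (1.16 to 1.30) in WT, at 252.8 CPM in positive and 206.2 CPM in negative barcodes, but 0.995 when the gate used all UMIs of a barcode. In the transfer pair the ratio was below 1, at 0.930 (0.872 to 0.991) in Aged and 0.872 (0.771 to 0.984) in Young. The kits also differ between the pairs, so the 2 designs cannot be told apart from the kit here. The Slc2a1 gate, for the transporter GLUT1, gave Txnip ratios of 1.12 (1.05 to 1.19) for KO, 0.912 (0.859 to 0.968) for WT, 0.941 (0.887 to 0.997) for Aged and 0.996 (0.923 to 1.07) for Young. With depth weights the ratio was 1.18 for KO, 1.13 for WT and 1.01 for Aged. With a gate on all UMIs it was 0.967 for KO and 0.794 for WT, so the sign of this gate was not stable. With gates on 2000 UMIs, the intervals of Arrdc3 held 1 in all 8 transporter contrasts. With the Slc2a1 gate on all UMIs, the Arrdc3 ratio was 0.827 for KO, 0.778 for WT, 0.881 for Aged and 0.794 for Young. With that gate on 2000 UMIs it was 0.923 for KO, 1.02 for WT, 0.981 for Aged and 1.22 for Young. Deep barcodes pass a gate on all UMIs more often, and Arrdc3 was lower in deep barcodes of each library. The part of depth in these ratios was not tested.

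Among non-cycling barcodes of KO and WT, those positive for both transporters had the highest Txnip level of the 4 combinations. They stood at 290.2 CPM (239.8 to 348.1, 51 barcodes) in KO and 292.5 CPM (238.5 to 355.1, 43 barcodes) in WT, while those negative for both stood at 172.4 CPM in KO, against 214.1 CPM in WT. In Aged and Young no such step was seen, with 201.8 CPM in double-positive and 229.8 CPM in double-negative barcodes of Aged, and 121.1 CPM and 147.7 CPM in those of Young. The transporters themselves were not alike in the pairs. Slc2a3 was at 41.2 CPM in KO, against 37.4 CPM in WT (ratio 1.10), and at 44.2 CPM in Aged, against 18.7 CPM in Young (ratio 2.37). Slc2a1 was at 38.8 CPM in KO, against 44.0 CPM in WT (ratio 0.881), and at 49.8 CPM in Aged, against 53.2 CPM in Young (ratio 0.937).

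The difference between the libraries of a pair was then read inside 10 classes of barcodes, positive or negative for Slc2a1, Slc2a3 and Mki67 and the 4 combinations of Tcf7 (a factor of stem-like T cells) and Pdcd1 (which encodes PD-1). The classes overlap, since each gate divides the same barcodes. Arrdc3 was higher in KO than in WT in all 10, with ratios from 1.97 to 2.45. Txnip was lower in KO in all 10, with an interval below 1 in 9. The exception was the Slc2a1-positive class, at 190.6 CPM in KO, against 192.3 CPM in WT (0.991, 0.910 to 1.08). The lowest ratio was 0.637 (0.563 to 0.720) in Tcf7-positive Pdcd1-positive barcodes, at 132.2 CPM in KO, against 207.6 CPM in WT.

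Aged over Young, Txnip was higher in all 10 classes, with ratios from 1.29 in Tcf7-positive Pdcd1-negative barcodes to 1.64 in Slc2a3-positive ones. Arrdc4 was also higher in Aged in all 10, with an interval above 1 in 9. For KO over WT, Arrdc4 was lower in 8 of the 10, and the 2 above 1 had intervals that held 1. Arrdc3 was higher in Aged in 1 class, Tcf7-positive Pdcd1-positive, at 22.3 CPM in Aged, against 12.5 CPM in Young (1.78, 1.05 to 3.05), and its ratio was below 1 in the other 9.

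**Figure D4:**
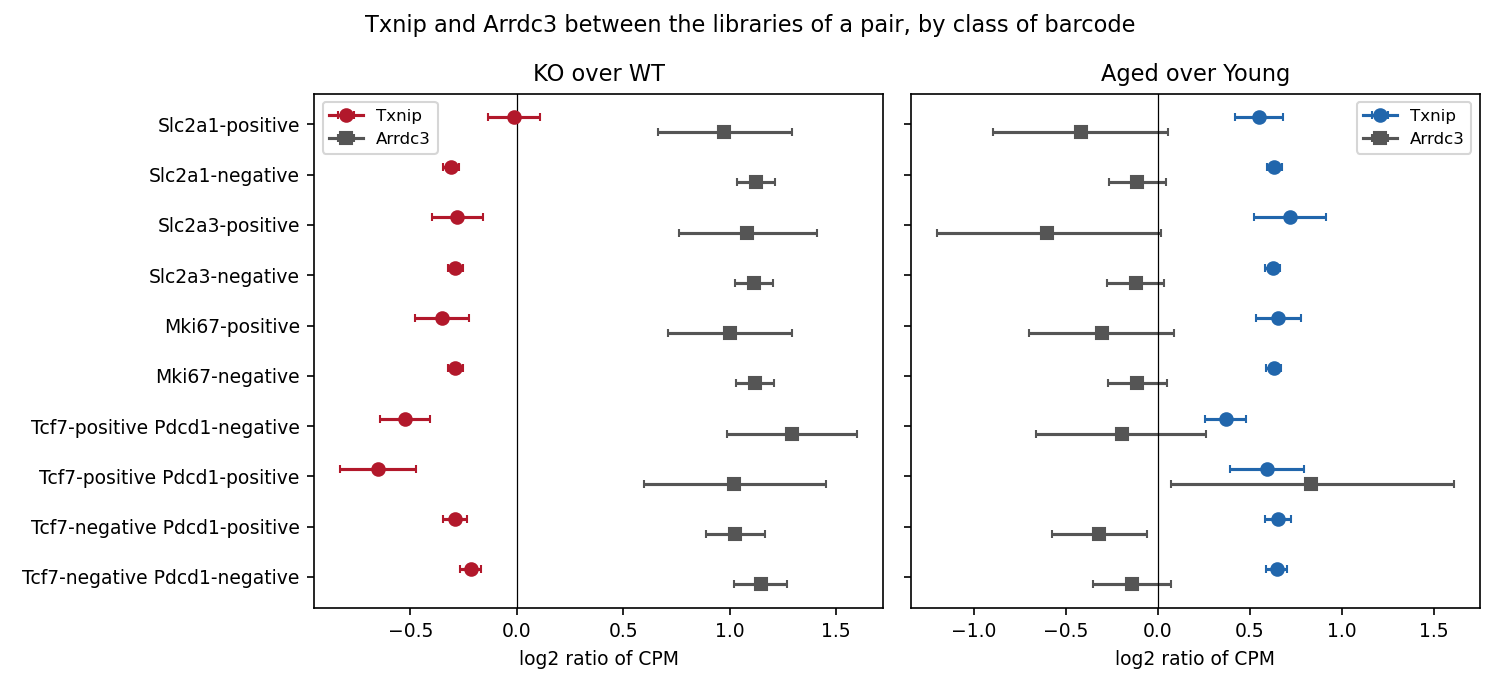
Log2 ratio of CPM between the libraries of a pair (horizontal axis), KO over WT on the left and Aged over Young on the right, for Txnip (circles) and Arrdc3 (squares) in 10 overlapping classes of barcodes (rows). Bars are exact 95% counting intervals. In KO over WT all Arrdc3 points lie right of 0 (ratios 1.97 to 2.45) and the Txnip points at or left of it, while in Aged over Young all Txnip points lie right of 0 (1.29 to 1.64).

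Of 26 further state genes used as gates, 5 had more Txnip in positive than in negative barcodes in all 4 libraries, each with an interval above 1: Hspa1a, Gzmb, Gzmk, Tsc22d3 and Pdcd1. For Hspa1a, a heat shock protein gene, the ratio was 1.51 for KO, 1.51 for WT, 1.25 for Aged and 1.37 for Young. For Gzmb, which encodes granzyme B, it was 1.49 in KO and 1.65 in WT but 1.10 in Aged and 1.12 in Young. Tsc22d3, a glucocorticoid-induced gene that is also known in quiescent T cells, gave 1.25 to 1.39. Pdcd1 gave 1.09 to 1.22 and Gzmk, which encodes granzyme K, 1.06 to 1.35. With depth weights all 5 stayed above 1 in all 4 libraries. The share of all genes that met the same rule, above or below 1, was not read in the state gates. These counts of gates are therefore not set against other genes. Txnip has many UMIs, and its intervals left out 1 at ratios as near to it as 1.06.

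Another 3 gates had less Txnip in positive barcodes in all 4 libraries, with intervals below 1. They were Ccl1, a chemokine gene of activated T cells (0.560 to 0.709), Il2ra, which encodes the interleukin 2 receptor alpha chain (0.768 to 0.864), and Ccr7, a homing receptor gene (0.749 to 0.861). For Il2ra, Txnip stood at 151.2 CPM in positive and 175.0 CPM in negative barcodes of KO, at 174.8 and 212.5 CPM in WT, at 166.4 and 216.5 CPM in Aged and at 113.0 and 140.1 CPM in Young. With depth weights Il2ra gave 0.796 to 0.853, and Ccr7 gave 0.855 to 0.995. For Ccl1, which was positive in 62 Aged barcodes, depth weights could be computed in the other 3 libraries, at 0.638 to 0.791. Tcf7 did not have 1 direction as measured: Txnip was lower in Tcf7-positive barcodes of KO (0.748) and higher in those of Young (1.26). With depth weights the Tcf7 ratios ran from 0.734 to 1.04 and were below 1 in 3 libraries.

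**Figure D5:**
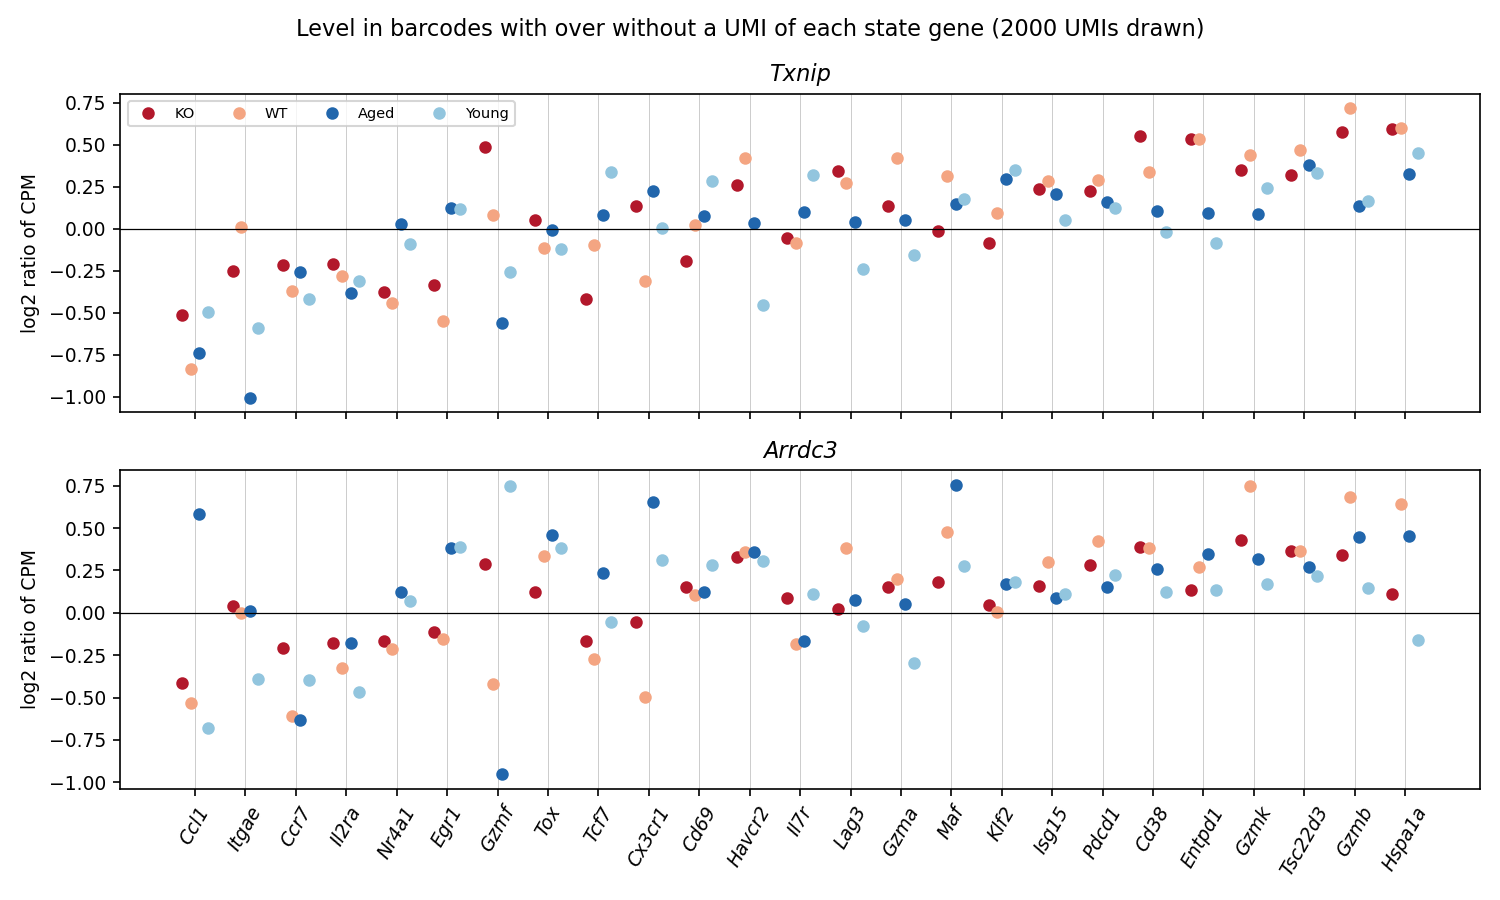
Log2 ratio of CPM in barcodes with over without a UMI of each state gene shown (horizontal axis, ordered by the mean for Txnip), for Txnip above and Arrdc3 below, with KO, WT, Aged and Young by colour. Intervals are not drawn, and gates were read in 2000 UMIs drawn per barcode. Txnip is below 0 in all 4 libraries for Ccl1 (ratios 0.560 to 0.709) and above 0 for Hspa1a (1.25 to 1.51).

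By the same rule on intervals, Arrdc3 was higher in positive barcodes in all 4 libraries in 0 of the 26 gates and lower in 1, Ccr7 (0.646 to 0.865). By the ratio alone, whatever its interval, it was above 1 in all 4 libraries in 12 gates and below 1 in 2, Ccr7 and Il2ra (0.725 to 0.885, with an interval below 1 in 3 libraries). Of the 12, 8 also stayed above 1 with depth weights, among them, with the ranges as measured, Tsc22d3 (1.16 to 1.29), Havcr2, which encodes the inhibitory receptor TIM-3 (1.23 to 1.28), and Gzmb (1.11 to 1.60). For Arrdc3 too, the share of all genes that met these rules was not read. Barcodes with a Txnip UMI had more Arrdc3. It stood at 57.0 CPM in Txnip-positive and 43.6 CPM in Txnip-negative barcodes of KO, a ratio of 1.31 (1.21 to 1.41), at 28.7 and 18.6 CPM in WT (1.54), at 14.9 and 10.0 CPM in Aged (1.49) and at 15.9 and 11.8 CPM in Young (1.34). With depth weights these ratios were 1.23 to 1.42. Arrdc4 (1.03 to 1.28) and Arrdc2 (1.10 to 1.30) were also higher in Txnip-positive barcodes in all 4 libraries. Each had an interval above 1 in 2 libraries and stayed above 1 with depth weights in all 4. Arrdc1 lay on both sides of 1 (0.922 to 1.07). The share of all genes higher in these barcodes was not read. So within each library barcodes with a Txnip UMI had more Arrdc3. Between KO and WT, the contrast by which Arrdc3 was chosen, the 2 genes lay apart. Nor did they go together in every gate. In Tox-positive barcodes Arrdc3 was above 1 in all 4 libraries (1.09 to 1.38), while Txnip was below 1 in 3 (0.918 to 1.04). In the Mki67 gate with depth weights they lay on opposite sides of 1 in KO, WT and Aged.

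After each library was centred, levels were compared across gates. Across 47 combinations of the 5 gates used for the classes, with at least 50 barcodes each, the genes whose levels went most with Txnip were Lfng, which encodes a glycosyltransferase that modifies Notch (Pearson r 0.83), Ifi214 (0.78), Fxyd5 (0.78), Mat2b (0.77) and Fam174a (0.77), of 6109 genes. Lowest were Nup205, a nuclear pore gene (-0.78), Ndufa4 (-0.76) and Prelid3b (-0.76). For Arrdc3 the highest were Ifi206 (0.63), Rab11fip1 (0.62), Parp9 (0.59), Itm2c (0.59) and Sp100 (0.58). The lowest were Add3 (-0.56), Imp3 (-0.52) and Ncl, which encodes nucleolin (-0.49). Txnip and Arrdc3 had r = 0.44, and Txnip and Arrdc4 r = 0.18. The combinations share libraries and depth, so these are descriptions.

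Other genes of the pathway were given as lists. Their counts stand beside the shares of all measured genes at least 1.5 times higher or lower, 0.607% and 3.09% for KO over WT and 2.62% and 3.83% for Aged over Young, and their medians beside -0.05 and 0.08. Of the sugar-sensing and Myc network, Mlxip was at 24.5 CPM in KO, against 26.5 CPM in WT, and at 31.6 CPM in Aged, against 28.9 CPM in Young, and Mlx at 26.3 CPM in KO, against 27.8 CPM in WT, and at 36.6 CPM in Aged, against 32.6 CPM in Young. Of 9 measured members, 0 were at least 1.5 times higher in KO and 1 was lower, Myc, at 11.2 CPM in KO, against 20.3 CPM in WT (0.549). Mxi1 was highest in KO over WT (1.11). In Aged 1 of 9 was higher, Mxi1, which encodes a Max partner, at 196.7 CPM in Aged, against 127.8 CPM in Young (1.54), and Mxd1, another Max partner, was lowest (0.851). The list's median log2 ratio was -0.09 for KO over WT and 0.13 for Aged over Young, near the medians of all measured genes.

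Glucose transporters and glycolysis genes had a median log2 ratio of 0.38 for Aged over Young, against 0.08 over all measured genes, with 2 of 18 measured members at least 1.5 times higher, Slc2a3 (2.37) and the lactate exporter gene Slc16a3 (2.08), and 0 lower, against 2.62% higher and 3.83% lower among all measured genes. For KO over WT the median was -0.08, with 0 of 17 past 1.5 times in either direction, from Slc16a1, a lactate transporter gene (0.835), to Eno1, which encodes enolase (1.11). In the thioredoxin and peroxiredoxin system, Txn1, the partner that Txnip binds, was at 705.1 CPM in KO, against 779.1 CPM in WT (0.905), and at 882.3 CPM in Aged, against 798.3 CPM in Young (1.11). None of its 12 measured members passed 1.5 times in KO over WT, where Srxn1, which encodes sulfiredoxin, was lowest (0.678) and Txnrd1, which encodes thioredoxin reductase, highest (1.11), and 1 was lower in Aged, Srxn1 (0.588).

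Of the Nedd4-type ligases and adaptors, 0 of 8 measured members passed 1.5 times in either pair. Ndfip1, an adaptor, was highest in KO over WT (1.12) and Nedd4 lowest (0.693), while in Aged over Young Smurf1, a ligase gene, was highest (1.10) and Nedd4 was again lowest (0.742). Foxo and quiescence genes had medians of 0.03 for KO over WT, where 1 of 17 was lower, Klf2 at 152.7 CPM in KO, against 247.6 CPM in WT (0.617), and Cdkn1b, a cell cycle inhibitor gene, was highest (1.39). The median was -0.30 for Aged over Young, where 0 of 15 passed 1.5 times and Foxo1 was highest (1.06). In Mki67-positive barcodes the list's median log2 ratio was -0.35 for KO, -0.63 for WT, -0.48 for Aged and -0.29 for Young, below the medians of all measured genes, 0.07, 0.09, 0.03 and 0.04 in the same order. Those medians have no depth weights, and Mki67-positive barcodes were the deeper ones in each library.

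The glucocorticoid response list had medians of -0.19 for KO over WT, with 0 of 9 past 1.5 times, and 0.02 for Aged over Young, with 1 of 9 higher, Il1r2, which encodes a decoy receptor for interleukin 1 (2.17). Il1r2 was also highest in KO over WT (1.39), and Sgk1, a kinase gene, was lowest in both pairs, at 0.683 in KO over WT and 0.694 in Aged over Young. Tsc22d3 was at 147.1 CPM in KO, against 184.6 CPM in WT (0.797). Of the beta-adrenergic and cyclic AMP genes 0 of 11 passed 1.5 times in KO over WT, from Adrb1, a receptor gene (0.781), to Creb1, which encodes a cyclic AMP-responsive factor (1.39). In Aged over Young 1 of the 11 was higher, Adrb1 (1.96), and 2 were lower, among them Pde4b, a phosphodiesterase gene (0.665). Of 4 other arrestin-fold genes measured in KO and WT, and 3 in Aged and Young, 0 passed 1.5 times. Arrb2, which encodes beta-arrestin 2, was at 66.5 CPM in KO, against 65.7 CPM in WT (1.01), the highest of the 4, and Arrb1 was lowest (0.848). In Aged over Young the highest was Vps26b (1.12) and the lowest Vps26a (0.955), which encode parts of the retromer.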

How the data were processed

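Single-cell RNA was measured in 4 libraries. The deposited matrices hold raw UMI counts for each gene and barcode, made by Cell Ranger 6.1.1 (KO, WT) and 7.1.0 (Aged, Young) per the file headers. Build mm10, Seurat 3.2.3 and another Cell Ranger version, 6.0.0, stand in the submitters' processing notes, so the version is not settled. Per the labels, KO and WT were made with a 3' kit and Aged and Young with an immune profiling kit, so levels were compared within a pair. Whether intronic reads were counted is not given there.

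The members and lists were chosen with earlier results of these data known. UMIs were summed over CD3 and CD8 positive barcodes and divided by their total (CPM). Levels have exact Poisson intervals, ratios exact conditional binomial intervals and shares exact Clopper-Pearson intervals. They cover counting error only, and cells are not replicates. Gates were read in 2000 UMIs drawn per barcode. Barcodes below that (45 in KO, 80 in WT, 201 in Aged, 611 in Young) were left out of gates and shares. Barcodes without a CD3 UMI were named from at least 3 markers of a type. No doublet caller was run. Alternatives changed the barcodes kept (all that passed, stricter CD3 and CD8 or mitochondrial limits, none of the 8% with the most UMIs, none with markers of other cells), the weight of barcodes, depth bins or classes, the scaling and the UMIs read by a gate. The genes named are the members, the ends of the likeness ranking and of each list in each pair, and state gates, chosen by fixed rules, and some results under these rules are not reported here. Genes named beyond these (Mlxip, Mlx, Slc16a3, Pde4b, Top2a and Bfar, and Txn1 and Tsc22d3 in KO and WT) were chosen after their values were seen or as background. Of 31253 gene IDs, 31107 were in the GRCm38 gene table. Code was tested on simulated data. Python 3.11.15, NumPy and SciPy were used.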

Additional observations from a re-analysis of the deposited data

Results flagged for a closer look

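In KO, Txnip was higher in Slc2a1-positive than in Slc2a1-negative barcodes (ratio 1.12), while in WT it was lower (0.912). It stands here because the same gate gave opposite directions in the 2 libraries of a pair, each with an interval that left out 1. The difference between the libraries was not tested, since each group is 1 library. Under each other setting the 2 libraries lay on the same side of 1. When the gate used all UMIs of a barcode, the ratio was 0.967 for KO and 0.794 for WT. With depth weights it was 1.18 for KO and 1.13 for WT. With the level from the same 2000 UMIs it was 1.21 for KO and 1.12 for WT.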

How the results depend on the processing

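No paired analysis was possible because each group is 1 library and the labels number no replicates. Leaving out a replicate was not possible for the same reason. Over 13 alternatives, of which 2 (depth bins, Tcf7 and Pdcd1 classes) were chosen after seeing the data, the KO over WT ratio of Txnip stayed below 1 (0.730 to 0.870) and that of Arrdc3 above 2 (2.02 to 2.27), and the Aged over Young ratio of Txnip stayed above 1.4 (1.45 to 1.72). Txnip in KO over WT was 0.870 over all barcodes, 0.769 without the 8% deepest, 0.745 without barcodes with other markers, 0.730 at 2000 UMIs, 0.738 with equal barcode weights, 0.847 scaled to the median gene and 0.754 with depth weights. Arrdc3 in KO over WT was 2.02 with equal barcode weights and 2.04 with depth weights. Txnip in Aged over Young was 1.46 without other markers, 1.45 scaled to the median gene and 1.72 with depth weights. Arrdc3 in Aged over Young was 1.00 with depth weights, on the other side of 1.

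Of 180 gate ratios under other settings, 60 lay on the other side of 1 from the value reported, and in 15 of these the reported interval had left out 1. These 15 follow. With the gate on all UMIs, Txnip was 0.967 for Slc2a1 in KO and 0.995 for Slc2a3 in WT, and Arrdc4 was 1.04 for Mki67 in KO, 1.34 for Slc2a3 in WT, 0.969 for Slc2a1 in Aged and 1.17 for Mki67 in Young. With the level from 2000 UMIs, Txnip was 1.12 for Slc2a1 in WT and 1.05 in Aged, and Arrdc4 0.284 for Slc2a1 in KO. With depth weights, Txnip was 1.13 for Slc2a1 in WT and 1.01 in Aged, Arrdc3 1.26 for Mki67 in KO, and Arrdc4 0.981 for Slc2a1 in KO, 0.946 in Aged and 1.00 for Mki67 in Young. The causes were not tested. Arrdc2 moved to 1.03 for KO over WT and 0.624 for Aged over Young at 2000 UMIs per barcode. Arrdc4 and Arrdc2 rest on at most 791 and 505 UMIs in a library, which limits their ratios by depth.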
